A study of Mus musculus with 12 samples.

Results

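The 10 genes described here were Atf4, Atf5, Atf3, Cebpb, Ddit3, Trib3, Chac1, Sesn2, Nupr1 and Asns, a set of stress-response regulators around the transcription factor Atf4 together with the enzyme asparagine synthetase. They were found by symbol among the 53819 gene symbols of the count table, and all 10 were among the 13852 genes with enough counts to be tested. The libraries came from E14, a standard mouse embryonic stem cell line grown as a 2D culture, and each of the 4 groups had 3 libraries. The groups were cells given the amino acid proline together with the synthetic glucocorticoid budesonide for 72 h, cells given proline alone for 72 h, cells given budesonide alone for 72 h, and untreated control cells. The labels give no dose, give neither a vehicle nor a duration for the controls, and do not say that each replicate was its own culture. The p-values therefore speak to library-to-library spread, part or all of which may be technical.

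When cells lack amino acids, carry unfolded proteins in the endoplasmic reticulum or meet other stresses, kinases phosphorylate the translation factor eIF2, most protein synthesis slows, and the Atf4 message is translated more. The Atf4 protein then pairs with C/EBP-family proteins and binds C/EBP-ATF response elements (CARE) in the promoters of genes for amino acid synthesis, transport and tRNA charging, and of further regulators that prolong or end the response. The measurements here are of messenger RNA, near the 3′ end of each transcript, and do not report the translation of Atf4.

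The promoter windows of 5 of the 10 genes held the CARE letters TGATGNAAN on 1 of the strands. These stretches are shown because CARE is the kind of element through which Atf4 is known to act. Windows ran from 250 bases before to 50 bases after the RefSeq start site in build GRCm38.p6, and the same letters occurred in 3.95% of 32851 such windows and in 4.50% of 27025 genes. Each stretch is written 5′ to 3′ along the gene, with the CARE letters in capitals. For Asns the capitals also mark GTTACA, the core of the second nutrient-sensing element described in the human gene.
Asns, minus strand, chr6:7693207-7693272: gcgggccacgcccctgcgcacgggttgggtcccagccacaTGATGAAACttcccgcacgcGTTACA
Chac1, plus strand, chr2:119351008-119351096: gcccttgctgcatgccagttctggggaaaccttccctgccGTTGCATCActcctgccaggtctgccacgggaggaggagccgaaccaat
Nupr1, minus strand, chr7:126625533-126625621: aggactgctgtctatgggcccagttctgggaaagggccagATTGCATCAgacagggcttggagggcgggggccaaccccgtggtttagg
Atf3, minus strand, chr1:191183396-191183484: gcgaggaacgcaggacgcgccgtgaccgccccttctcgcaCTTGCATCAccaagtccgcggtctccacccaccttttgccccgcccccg
Trib3, minus strand, chr2:152344028-152344057: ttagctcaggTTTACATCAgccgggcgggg

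In Asns the CARE letters lay on the gene's own strand with their first base at position −23 from the start site, and GTTACA began at position −3. In Chac1, Nupr1, Atf3 and Trib3 the letters lay on the other strand, with first bases at −194, −111, −111 and 14. The windows of Atf4, Atf5, Cebpb, Ddit3 and Sesn2 did not hold these letters. The cyclic AMP response element TGACGTCA, searched in the same way, occurred in 0 of the 10 genes and in 2.03% of all genes with a window. A match of letters is a description of the sequence and does not show that a protein was bound there.

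**Figure D1:**
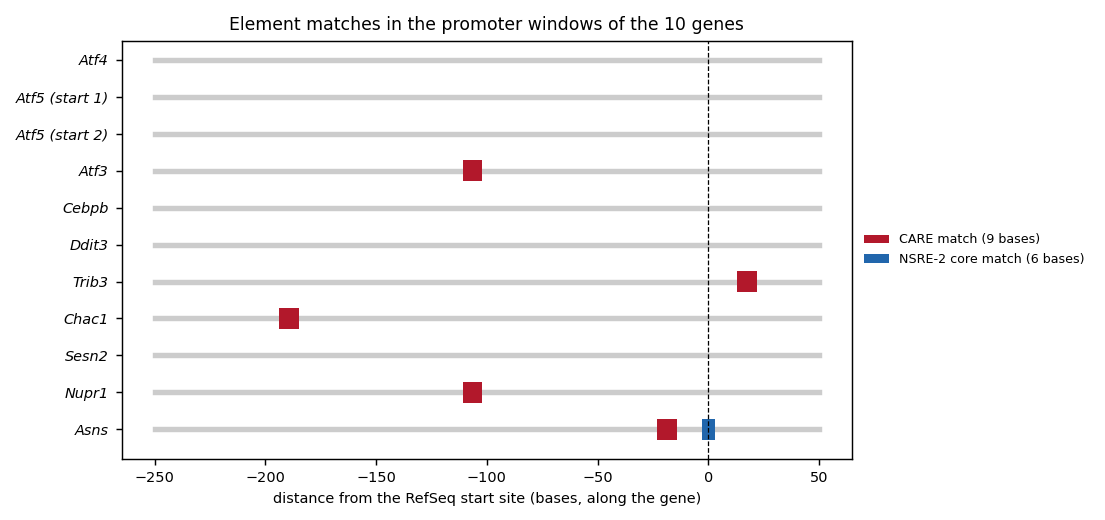
Element matches in the promoter windows of the 10 genes (Atf5 has 2 start sites in the table); the horizontal axis gives distance from the RefSeq start site in bases along the gene, grey lines are the windows, red blocks CARE matches and the blue block the GTTACA match. The red blocks of Asns and Trib3 lie within 50 bases of the start site, and those of Atf3, Nupr1 and Chac1 lie farther upstream.

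The depth behind these values was 5.30 to 8.48 M counts per library, except for proline library 1 with 15.9 M. Budesonide library 3 and control library 3 stood apart, with 8.43% and 6.57% of the tested genes at 0 counts against 1.39% to 5.77% in the others, and the calls given here were rerun without them. The share of counts on the ribosomal RNA gene Rn18s was 3.11% to 5.90% with both, 2.36% to 3.39% with proline, 2.28% to 6.70% with budesonide (highest in budesonide library 3) and 2.21% to 2.77% in controls. All 9 stem cell markers, Pou5f1 and Nanog among them, were tested, and their summed level was 2666 to 2832 CPM (counts scaled to the depth of the library) in cells given both agents, 2060 to 2557 CPM with proline, 2323 to 2713 CPM with budesonide and 2566 to 3415 CPM in controls. Within the sum, 5 of the 9 (Nanog, Zfp42, Esrrb, Klf4 and Tfcp2l1) fell with proline against controls and rose with both against proline, where Tdgf1 fell, and these 5 were also called for the interaction of the agents. The 6 primed epiblast markers, which mark a more advanced stage, summed to 746 to 792 CPM with both, 1897 to 2178 CPM with proline, 375 to 459 CPM with budesonide and 564 to 586 CPM in controls. The 7 primitive endoderm markers summed to 16.8 to 24.1 CPM with both, 22.4 to 28.4 CPM with proline, 5.40 to 17.1 CPM with budesonide and 6.01 to 13.9 CPM in controls. The 9 fibroblast markers summed to 3.87 to 7.75, 17.1 to 22.8, 5.40 to 6.35 and 11.6 to 20.0 CPM in the same order of groups. Only 4 of them had enough counts to be tested, and 1, Thy1, fell with both against proline and against controls by edgeR, the second not called by limma-voom. Thy1 averaged 1.21 ± 0.162 CPM with both, 11.9 ± 5.27 CPM with proline, 2.44 ± 1.50 CPM with budesonide and 8.12 ± 1.19 CPM in controls, and Dcn averaged 0.489 ± 0.847 CPM with both and 5.69 ± 2.42 CPM with proline. The remaining tested markers, Col1a1 and Twist1, had their lowest mean with proline and were not called by edgeR. Col1a1 averaged 1.64 ± 2.26 CPM with both, 0.293 ± 0.393 CPM with proline and 2.72 ± 2.29 CPM in controls. Twist1 averaged 2.08 ± 1.38 CPM with both, 0.9997 ± 0.176 CPM with proline and 2.03 ± 1.81 CPM in controls. Postn and Lum had 0 counts in every library, which allows up to 0.0330 CPM over all libraries together (3 counts, counting error only). The 5 markers of the rare 2-cell-like state summed to 1.75 to 9.07, 8.48 to 13.3, 1.24 to 5.11 and 6.63 to 15.2 CPM in that order. Some of these measures therefore moved with the treatments, as did genes below, and others overlapped controls. The primed epiblast sum lay outside the control range in every treated group. The Rn18s share lay above controls in all libraries given both and overlapped controls with proline and with budesonide. The part of the marker levels and of the Rn18s share in these results was not tested. In bulk RNA, fewer cells holding a transcript and less of it per cell cannot be told apart.

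Among the transcription factors, Atf4, the bZIP activator at the head of the response (chr15:80255184-80257541 in GRCm38, plus strand), had 280.4, 321 and 307 CPM in cells given both, 330.0, 311 and 334 CPM with proline, 321, 385 and 410.4 CPM with budesonide, and 439.8, 436 and 527 CPM in controls. All control libraries lay above all treated libraries, and the treated groups overlapped their neighbours in the order of levels. Atf5, a close relative whose translation is regulated in a similar way and which also serves the mitochondrial stress response (chr7:44812256-44816658, minus strand), had 10.8, 19.4 and 17.3 CPM with both, 13.5, 8.44 and 6.11 CPM with proline, 30.7, 29.1 and 29.2 CPM with budesonide, and 22.7, 27.9 and 37.9 CPM in controls. The libraries from cells given proline, with or without budesonide, were all below those from cells that had none.

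Ddit3 encodes CHOP, a C/EBP-family protein linked to cell death in prolonged stress (chr10:127290774-127296288, plus strand). It had 7.38, 8.63 and 7.47 CPM with both, 1.50, 1.33 and 3.33 CPM with proline, 8.46, 3.25 and 6.45 CPM with budesonide, and 6.87, 7.52 and 8.64 CPM in controls. The proline libraries were below all libraries of cells given both and of controls, and only the highest of them passed the lowest budesonide library. These levels rested on 163, 56, 145 and 137 counts in those groups. The last 68 bases of the Ddit3 annotation (chr10:127296221-127296288) also belong to Mars1, the methionine tRNA synthetase gene on the opposite strand. Whether strand was used in counting is not given in the sources used here, so reads of the 2 genes may be mixed. Mars1 itself averaged 89.0 ± 11.5 CPM with both, 133 ± 30.0 with proline, 83.9 ± 7.16 with budesonide and 158 ± 10.9 in controls (SD, n = 3 each).

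Atf3, an immediate stress-induced bZIP factor (chr1:191170296-191218039, minus strand), was near the limit of detection with 29, 26, 22 and 15 counts in cells given both, proline, budesonide and neither. Its libraries ran from 0.731 to 2.53 CPM with both, 0 to 2.08 CPM with proline, 0.132 to 1.39 CPM with budesonide and 0.154 to 1.35 CPM in controls, and all groups overlapped. The 0 counts in proline library 1 allow up to 0.196 CPM. Cebpb, a C/EBP partner of Atf4 encoded by a gene without introns (chr2:167688915-167690418, plus strand), had 2.31, 8.04 and 1.07 CPM with both, 11.3, 3.11 and 3.75 CPM with proline, 4.51, 3.56 and 1.58 CPM with budesonide, and 1.31, 1.35 and 3.24 CPM in controls. A single library was high in the group given both and in the proline group, and neighbouring groups overlapped. Cebpb shares 312 bases with an exon of Tmem189 on the opposite strand, 596 bases from its own 3′ end, and reads there cannot be assigned without strand.

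Among the regulators that act after Atf4, Trib3 encodes a pseudokinase that feeds back on Atf4 (chr2:152337422-152344032, minus strand). It had 23.2, 19.6 and 26.5 CPM with both, 28.8, 26.5 and 26.7 CPM with proline, 31.8, 41.7 and 44.4 CPM with budesonide, and 45.7, 43.6 and 44.1 CPM in controls. The groups given proline lay below the other 2 groups without overlap. Nupr1, a small stress-induced chromatin-associated protein (chr7:126623249-126630861, minus strand), had 3.69, 1.75 and 4.27 CPM with both, 2.29, 4.44 and 7.09 CPM with proline, 10.3, 5.42 and 10.4 CPM with budesonide, and 20.9, 14.5 and 21.0 CPM in controls. Every treated library was below every control library, on 68, 116, 205 and 339 counts in the 4 groups.

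Chac1, an enzyme that degrades glutathione (chr2:119351229-119354381, plus strand), was ordered differently. It had 6.15, 6.87 and 4.67 CPM with both, 24.9, 16.4 and 25.3 CPM with proline, 15.2, 11.9 and 3.82 CPM with budesonide, and 19.3, 19.5 and 19.7 CPM in controls. The budesonide-treated libraries, with or without proline, were all below the libraries without budesonide, and budesonide library 3 was the lowest of the 12. Sesn2, a leucine-sensing inhibitor of mTORC1 (chr4:132492032-132510501, minus strand), had 90.9, 101 and 119 CPM with both, 82.8, 95.9 and 77.7 CPM with proline, 104, 109.6 and 64.7 CPM with budesonide, and 109, 97.1 and 114 CPM in controls. Neighbouring groups in its order of levels overlapped.

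Asns makes asparagine from aspartate and glutamine and is a standard reporter of Atf4 activity (chr6:7675169-7693254, minus strand). It had 156, 157 and 153 CPM with both, 137, 132 and 134 CPM with proline, 295, 279 and 246 CPM with budesonide, and 271, 279 and 357 CPM in controls. The libraries formed a low range with proline and a high range without it, and those given both lay above those given proline alone. The budesonide and control libraries overlapped.

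**Figure D2:**
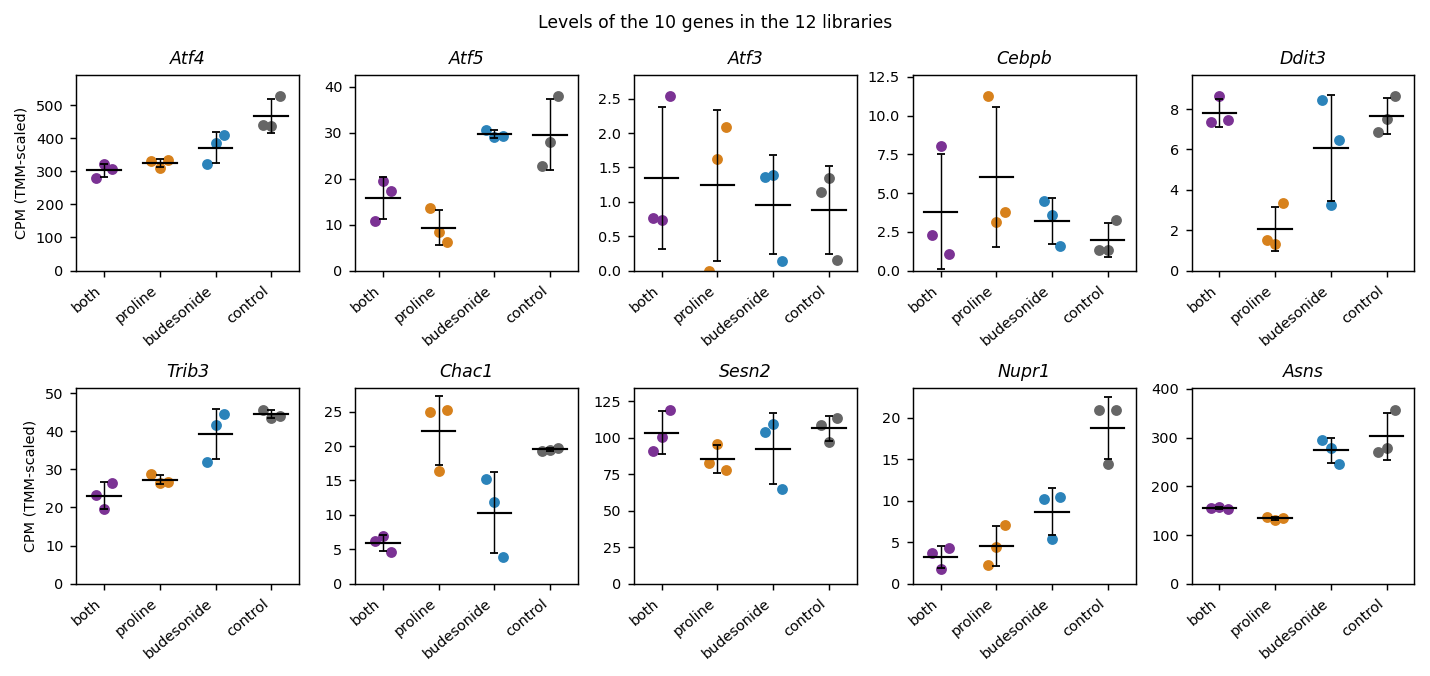
Level of each of the 10 genes in the 12 libraries, in CPM scaled by TMM on linear axes from 0; points are libraries, horizontal bars group means and whiskers SD (n = 3). Asns, Atf5 and Trib3 are lower in the groups given proline, Chac1 in the groups given budesonide, and Ddit3 is low in the group given proline alone.

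The first comparison asked what proline did without budesonide. Of the 10 genes, 6 fell and 0 rose in proline cells against controls, at an adjusted p below 0.05 from the edgeR quasi-likelihood test. Over all genes tested 4.71% fell and 3.17% rose (7.88% in either direction). The 6 were the factors Atf4, Atf5 and Ddit3, the regulators Trib3 and Nupr1, and the enzyme Asns. The median log2 change of the 10 genes was −0.61, beside −0.0090 over all genes tested. The libraries did not overlap, with proline lower, for these 6 and for Sesn2, 7 of 10 genes, beside 14% of all genes tested.

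Asns averaged 134 ± 2.45 CPM in proline cells and 303 ± 47.6 CPM in controls (SD, n = 3 each), a log2 change of −1.17 ± 0.13 (SE, adjusted p = 1.08e-06). This was a 2.25-fold lower level. Atf4 averaged 325 ± 12.6 CPM with proline and 468 ± 51.6 CPM in controls, and fell by 0.53 ± 0.12 on the log2 scale (adjusted p = 0.00522). Atf5, at 9.36 ± 3.80 CPM with proline and 29.5 ± 7.72 CPM in controls, had a log2 change of −1.63 ± 0.31 (adjusted p = 0.00148). These 3 calls were made under each of the 21 alternative settings tried. Nupr1 averaged 4.61 ± 2.40 CPM with proline and 18.8 ± 3.75 CPM in controls, a log2 change of −2.05 ± 0.48 (adjusted p = 0.00761), and its call was lost only without proline library 1 (adjusted p = 0.0557).

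The calls of Ddit3 and Trib3 were less secure. Ddit3 averaged 2.06 ± 1.11 CPM with proline and 7.68 ± 0.892 CPM in controls, a log2 change of −1.91 ± 0.55 with a 95% interval of −3.05 to −0.76 (adjusted p = 0.034). Trib3 averaged 27.3 ± 1.27 CPM with proline and 44.4 ± 1.09 CPM in controls, a log2 change of −0.70 ± 0.21 (adjusted p = 0.0445). Both kept their sign in every alternative, but Ddit3 was called in 11 of 21 and Trib3 in 9 of 21. For Ddit3 the adjusted p was 0.0708, 0.0848 or 0.0843 without control 1, 2 or 3, 0.144 or 0.127 without proline 1 or 2, 0.0528 or 0.0522 without library 1 or 2 of cells given both, and 0.0529 without control 3 and budesonide 3 together. For Trib3 it was 0.135, 0.114 or 0.0812 without control 1, 2 or 3, and 0.103, 0.129 or 0.136 without proline 1, 2 or 3. It was 0.0588 without budesonide 2, 0.0647 or 0.0542 without library 1 or 2 of cells given both, and 0.0539 without control 3 and budesonide 3. With no low-count filter it was 0.0694 for Ddit3 and 0.0937 for Trib3, and for Ddit3 0.0561 with only the proline and control libraries in the fit.

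The other 4 genes were not called with proline. Chac1 averaged 22.2 ± 5.01 CPM in proline cells and 19.5 ± 0.218 CPM in controls, and its log2 difference of 0.19 ± 0.37 had an interval of −0.58 to 0.96 (adjusted p = 0.861). Sesn2 averaged 85.4 ± 9.42 CPM with proline and 107 ± 8.60 CPM in controls, with an interval of −0.69 to 0.05 (adjusted p = 0.345). The intervals of Cebpb, −0.08 to 3.31, and of Atf3, −2.70 to 3.63, spanned 0 and were the widest of the 10.

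**Figure D3:**
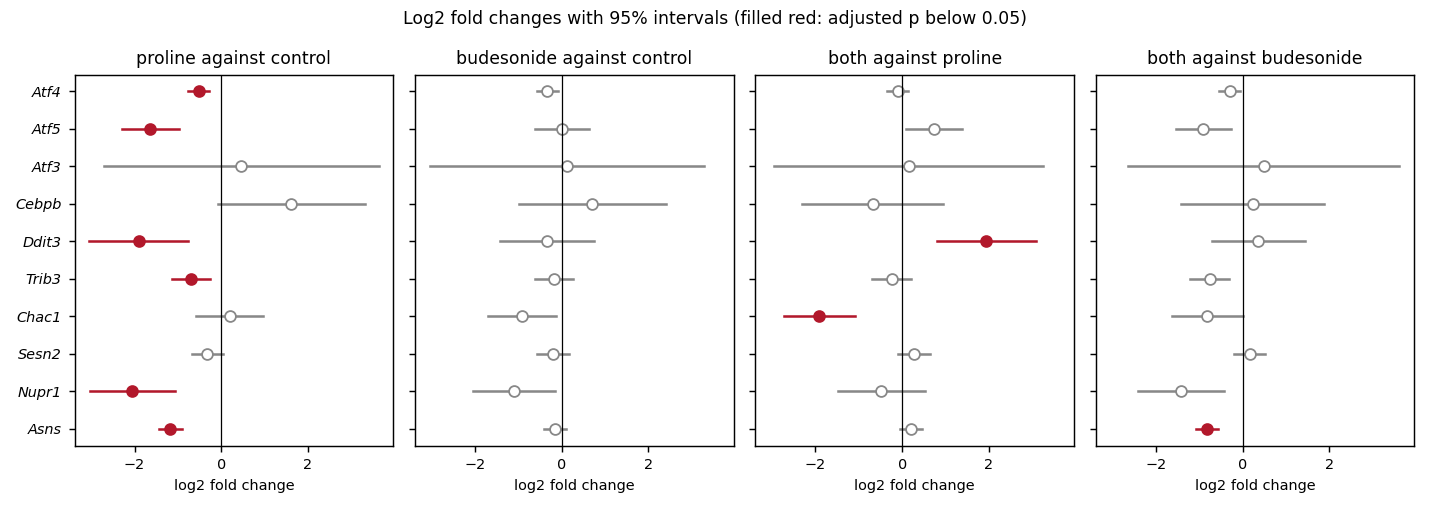
Log2 fold changes of the 10 genes with 95% intervals in 4 comparisons, with the treated group named first in each panel; filled red points have an adjusted p below 0.05. Proline against control holds 6 red points, all below 0, budesonide against control holds 0, and both against proline holds Ddit3 above 0 and Chac1 below 0.

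With budesonide alone, 0 of the 10 genes were called against controls by edgeR, where 6.51% of all genes tested were called (2.51% higher and 4% lower). That split depended on the scaling, with 348 genes higher and 554 lower as reported and 513 higher and 349 lower when libraries were scaled by their totals alone. At an unadjusted p below 0.05 there were 3, Atf4, Chac1 and Nupr1, beside 20.0% of all genes tested, and these 3 were also the genes whose libraries did not overlap, with budesonide lower (12.2% of all genes tested). DESeq2 called 1 gene, Atf4, and limma-voom 0. The median log2 difference of the 10 genes was −0.19, beside 0.013 over all genes tested.

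Atf4 averaged 372 ± 45.8 CPM with budesonide and 468 ± 51.6 CPM in controls, a log2 difference of −0.33 ± 0.12 with an interval of −0.57 to −0.09 (adjusted p = 0.0935, and 0.0417 with DESeq2). Chac1 averaged 10.3 ± 5.87 CPM with budesonide and 19.5 ± 0.218 CPM in controls, an interval of −1.70 to −0.12 (adjusted p = 0.173). Nupr1 averaged 8.70 ± 2.84 CPM with budesonide and 18.8 ± 3.75 CPM in controls, an interval of −2.06 to −0.16 (adjusted p = 0.169). Asns, which had the lowest adjusted p of the 10 with proline, averaged 273 ± 25.4 CPM with budesonide and 303 ± 47.6 CPM in controls, and its interval of −0.40 to 0.11 spanned 0 (adjusted p = 0.585). Atf5 averaged 29.7 ± 0.861 CPM with budesonide and 29.5 ± 7.72 CPM in controls (log2 difference 0.0061 ± 0.30, adjusted p = 0.997).

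In this comparison short transcripts tended to be lower than long ones. The median log2 change was −0.19 for genes whose longest transcript had up to 1000 bases and 0.21 for those over 8000 bases. The same order was seen with both against proline (−0.12 and 0.30) and with both against controls (−0.17 and 0.067). It was reversed with proline against controls (−0.061 and −0.19) and with both against budesonide (0.024 and −0.14). Nupr1 and Ddit3 have longest transcripts of 829 and 890 bases, and the other 8 genes of 1504 to 3475 bases. Correcting each library for transcript length changed no call among the 10 genes in any comparison.

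Adding budesonide to proline moved 2 of the 10 genes past the threshold, 1 in each direction, where 10.1% of all genes tested were called (5.83% higher and 4.27% lower). Their median log2 change was 0.024, beside 0.017 over all genes tested. Chac1 averaged 5.90 ± 1.12 CPM with both and 22.2 ± 5.01 CPM with proline, a log2 change of −1.91 ± 0.39 with an interval of −2.73 to −1.10 (adjusted p = 0.00234). It was 3.77-fold lower and was called under each of the 21 alternatives. Ddit3 averaged 7.83 ± 0.695 CPM with both and 2.06 ± 1.11 CPM with proline, and rose by 1.93 ± 0.55 on the log2 scale (adjusted p = 0.0253, interval 0.79 to 3.07). The rise was 3.82-fold and its call held in 15 of 21 alternatives. It was lost without proline 1 or 2 (adjusted p = 0.111 or 0.101), without library 1, 2 or 3 of cells given both (0.0672, 0.0848 or 0.0504), and with no low-count filter (0.0511). Mars1, whose last exon meets that of Ddit3, had a log2 change of −0.58 ± 0.16 here (adjusted p = 0.0199). That call was lost without proline 2 or library 1 or 2 of cells given both, where its adjusted p reached 0.168. With proline alone and with budesonide alone, the means of Mars1 and of Ddit3 were both below controls. The part of Mars1 reads in the Ddit3 counts was not tested.

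The remaining 8 genes were not called between both and proline. Asns averaged 155 ± 1.78 CPM with both and 134 ± 2.45 CPM with proline, and although its libraries did not overlap, the log2 difference of 0.21 ± 0.12 had an interval of −0.05 to 0.47 (adjusted p = 0.341). Non-overlap in either direction was seen for 3 of the 10 genes and for 31.9% of all genes tested. Atf4 had an interval of −0.34 to 0.14 and Atf5 of 0.09 to 1.39 (adjusted p = 0.683 and 0.152).

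Cells given both were next set against cells given budesonide alone, which gives the proline effect with budesonide present. Asns fell and no other gene of the 10 was called, where 1.47% of all genes tested were called (0.874% higher and 0.592% lower, 121 and 82 genes, against 65 and 114 genes with scaling by library totals alone). Asns averaged 155 ± 1.78 CPM with both and 273 ± 25.4 CPM with budesonide, a log2 change of −0.82 ± 0.12 (adjusted p = 0.00118), and was called under each of the 21 alternatives. Trib3 averaged 23.1 ± 3.48 CPM with both and 39.3 ± 6.62 CPM with budesonide, with an interval of −1.21 to −0.32 (adjusted p = 0.0804), and DESeq2 called it at 0.0185. The libraries of Atf4, Atf5, Trib3, Nupr1 and Asns did not overlap, with both lower, which makes 5 of the 10 genes beside 9.23% of all genes tested. The median log2 change of the 10 was −0.53, beside 0.0062 over all genes tested.

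Whether the proline effect differed with and without budesonide was tested as an interaction, for which edgeR, DESeq2 and limma-voom each called 0 of the 10 genes (edgeR 0.469% of all genes tested). At an unadjusted p below 0.05 there was 1 of 10, Ddit3, beside 8.65% of all genes tested. The log2 change of Ddit3 was −1.91 ± 0.55 without budesonide and 0.36 ± 0.52 with it, a difference of 2.27 ± 0.76 with an interval of 0.70 to 3.84 (edgeR adjusted p = 0.303). For Chac1 the 2 changes were 0.19 ± 0.37 and −0.81 ± 0.39, a difference with an interval of −2.12 to 0.12 (adjusted p = 0.64). For Asns they were −1.17 ± 0.13 and −0.82 ± 0.12, and the interval of the difference ran from −0.01 to 0.72 (adjusted p = 0.585).

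**Figure D4:**
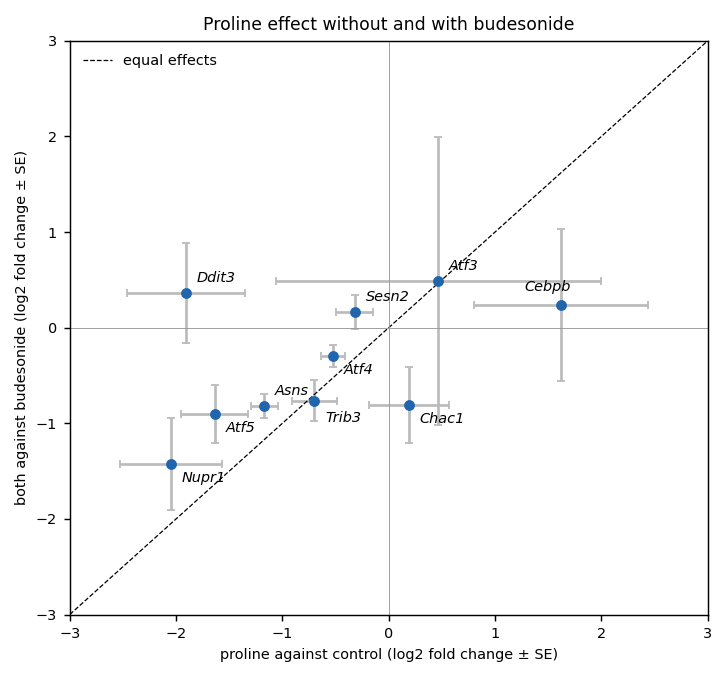
Log2 fold change (± SE) of the 10 genes for both against budesonide on the vertical axis and for proline against control on the horizontal axis; the dashed line marks equal effects. Ddit3 lies farthest from the line, with −1.91 without budesonide and 0.36 with it.

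Cells given both agents were also set against untreated cells, a comparison that shares its controls with the single treatments. Of the 10 genes 5 fell and 0 rose, where 3.83% of all genes tested fell and 3.34% rose (7.17% in either direction), and the medians were −0.76 for the 10 and 0.0088 over all genes tested. The largest log2 change of the 10 was that of Nupr1, at 3.24 ± 1.32 CPM with both and 18.8 ± 3.75 CPM in controls (log2 change −2.53 ± 0.49, adjusted p = 0.002). Chac1 fell by 1.73 ± 0.40 on the log2 scale (adjusted p = 0.00787), Asns by 0.96 ± 0.13 (adjusted p = 3.72e-05) and Atf4 by 0.63 ± 0.12 (adjusted p = 0.00143). These 4 were called under each of the 21 alternatives. Trib3 fell by 0.94 ± 0.22 (adjusted p = 0.00775), a call lost only without library 2 of cells given both (adjusted p = 0.0627).

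Ddit3 was 7.83 ± 0.695 CPM with both and 7.68 ± 0.892 CPM in controls, and the interval of its log2 difference was −1.05 to 1.11 (adjusted p = 0.988). Sesn2 was 104 ± 14.5 CPM with both and 107 ± 8.60 CPM in controls (adjusted p = 0.944). Atf5 averaged 15.9 ± 4.53 CPM with both and 29.5 ± 7.72 CPM in controls, and its adjusted p of 0.0826 missed the threshold although the libraries did not overlap. Non-overlap, with both lower, held for 6 of the 10 genes beside 14% of all genes tested.

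The rest of the pathway was read from 8 lists with 104 genes, upstream and downstream of Atf4. Of the 13 amino acid synthesis genes tested, 3 fell and 0 rose with proline against controls, with a median log2 change of −0.52. Over all genes tested 4.71% fell and 3.17% rose in that comparison. Cth, which makes cysteine, averaged 26.2 ± 5.91 CPM with proline and 66.6 ± 2.55 CPM in controls (log2 change −1.35 ± 0.20, adjusted p = 7.31e-05). Psat1, a serine synthesis enzyme, averaged 256 ± 8.67 CPM with proline and 399.9 ± 57.7 CPM in controls (−0.65 ± 0.13, adjusted p = 0.00185). Both were called under each alternative. With both agents against controls 5 of 13 fell, beside 3.83% of all genes tested, with a median of −0.78. Of these 5 calls, 3 held under every alternative, those of Psat1, Cth and Pck2. Psat1 averaged 173 ± 28.3 CPM with both (log2 change −1.21 ± 0.13 against controls). Pck2, a mitochondrial enzyme that makes phosphoenolpyruvate, averaged 14.6 ± 2.37 CPM with both and 41.3 ± 5.53 CPM in controls (log2 change −1.50 ± 0.25).

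Amino acid transporters moved in both directions. Of the 9 tested, 2 fell and 1 rose with proline against controls, with a median log2 change of −0.19. Over all genes tested 4.71% fell and 3.17% rose. The fall of Slc1a5, a glutamine carrier (adjusted p = 0.0466), was called in 9 of 21 alternatives, and the calls of the other 2 genes in all 21. Slc7a1, the carrier of cationic amino acids, averaged 47.0 ± 3.62 CPM with proline and 124 ± 7.51 CPM in controls (−1.41 ± 0.15, adjusted p = 1.04e-06). Slc38a2, a carrier of small neutral amino acids that include proline, averaged 809 ± 32.5 CPM with proline and 604 ± 20.2 CPM in controls (0.42 ± 0.09, adjusted p = 0.00449). With budesonide against controls 2.51% of all genes tested rose and 4% fell, and of the 9 transporters 2 rose and 0 fell. They were Slc38a2, at 843 ± 44.7 CPM with budesonide (0.48 ± 0.09, adjusted p = 0.00218), and Slc3a2, the shared heavy chain of several amino acid exchangers, at 527 ± 59.5 CPM with budesonide and 316 ± 37.5 CPM in controls (0.74 ± 0.15, adjusted p = 0.00362). Slc38a2 reached 1073 ± 28.3 CPM with both, the group in which Slc7a1 was at 64.3 ± 5.45 CPM. Atf4 itself was lower than in controls in both of the groups given proline, where Slc38a2 was higher.

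The list of tRNA charging and export had 13 genes tested. With proline against controls 4 fell and 0 rose, with a median log2 change of −0.29, and 0 of these 4 calls held under every alternative. Over all genes tested 4.71% fell and 3.17% rose. With both against controls 8 fell and 0 rose, where 3.83% of all genes tested fell and 3.34% rose. The list median was −0.48, and 5 of the 8 calls held under every alternative. Among the latter were Mars1 (log2 change −0.83 ± 0.16), Cars (−0.74 ± 0.15) and Gars (−0.72 ± 0.11), for methionine, cysteine and glycine. With budesonide against controls 2 fell, beside 4% of all genes tested, and Mars1 led with −0.91 ± 0.16 (adjusted p = 0.000909). CARE letters were found in the windows of 5 of 9 genes of this list, 3 of 11 amino acid synthesis genes and 2 of 7 transporters. The counts were 2 of 14 other stress-response targets, 1 of 14 endoplasmic reticulum folding genes and 1 of 11 C/EBP and AP-1 type partners. They were 0 of 9 eIF2 genes and 0 of 7 mitochondrial stress genes. All are out of the genes that had a window, beside 4.50% of all genes. Of the synthesis, transport and tRNA charging genes named here, only Pck2 and Gars had a match, and some listed genes had no window.

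Upstream of Atf4, 1 of the 11 genes for eIF2, its kinases and its phosphatase rose with both against controls. A count of 1 in 11 is near the 7.17% of all genes called there. The gene was Impact, an inhibitor of the eIF2 kinase Gcn2, at 92.0 ± 9.28 CPM with both and 46.0 ± 5.19 CPM in controls (log2 change with an interval of 0.62 to 1.38, adjusted p = 0.00137). It was called under each alternative. With both against proline 1 rose and 1 fell, neither under every alternative, beside 10.1% of all genes called. Of these 11, 0 were called with proline against controls by edgeR, DESeq2 or limma-voom, and 1 had an unadjusted p below 0.05, beside 7.88% of all genes called and 19.3% at an unadjusted p below 0.05. With budesonide against controls 1 fell, a call not made under every alternative, beside 6.51% of all genes called. Of the 17 genes of endoplasmic reticulum folding driven by Atf6 and Xbp1, 0 were called with proline against controls by edgeR and limma-voom. DESeq2 called 1, and 3 had an unadjusted p below 0.05, beside 19.3% of all genes tested at that level. The median log2 change of this list was −0.030. With both against proline 3 of these 17 rose, 0 of them under every alternative, beside 5.83% of all genes tested. In cells given both against controls 2 rose, beside 3.34% of all genes tested. Of these 2, the folding enzyme Pdia6 (0.62 ± 0.10, adjusted p = 0.000349) was called under each alternative. The autophagy receptor Sqstm1, 1 of 15 tested among other stress-response targets, averaged 198 ± 6.74 CPM with both, 109 ± 7.73 CPM with proline and 119 ± 6.66 CPM in controls. It rose by 0.85 ± 0.13 over proline and 0.74 ± 0.13 over controls on the log2 scale. Of 9 mitochondrial stress genes 3 fell with budesonide against controls, beside 4% of all genes tested. The chaperone Hspd1 (−0.60 ± 0.11, adjusted p = 0.0018) was called under each alternative. The other 2, Hspe1 and Clpp, were called in 14 and 12 of 21 alternatives. Both have short transcripts and lost the call with the correction for transcript length (adjusted p = 0.35 and 0.23). Both also lost it with scaling by library totals alone, with only the groups compared, and without some single libraries. Of the 11 C/EBP and AP-1 type partners tested, 0 were called with proline or with budesonide against controls by edgeR, DESeq2 or limma-voom. Over all genes tested edgeR called 7.88% with proline and 6.51% with budesonide. In each comparison 1 partner had an unadjusted p below 0.05, beside 19.3% of all genes tested with proline and 20.0% with budesonide. With both against controls 2 of the 11 rose, beside 3.34% of all genes tested. Of these 2, Mafg, a small Maf protein, at 117 ± 15.3 CPM with both and 65.7 ± 11.9 CPM in controls (log2 change 0.84 ± 0.17, adjusted p = 0.00273), was called under each alternative. None of the 8 lists had a gene called for the interaction by edgeR or limma-voom, and DESeq2 called 1, among the other stress-response targets. Over all genes tested edgeR called 0.469% for the interaction. At an unadjusted p below 0.05 the interaction counts were 0 to 2 per list, beside 8.65% of all genes tested.

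**Figure D5:**
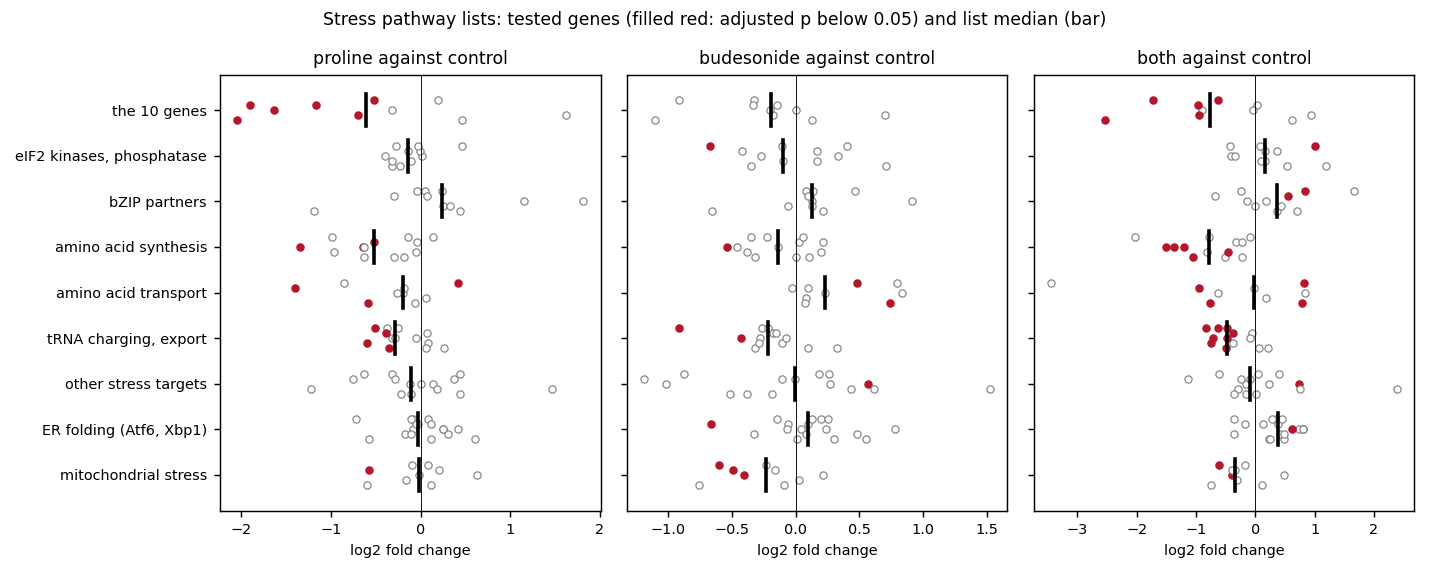
Log2 fold changes of the 10 genes and of 8 pathway lists in 3 comparisons with control, where each point is a tested gene, filled red where the adjusted p was below 0.05, and each bar is the list median; horizontal axes differ between panels. Amino acid synthesis and tRNA charging have medians below 0 in proline and in both against control, and the eIF2 list lies closer to 0.

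Over the 12 libraries, which share 4 groups and therefore are not 12 independent conditions, the levels of the 10 genes followed each other unevenly. The Pearson correlation of log2 CPM was 0.89 between Atf5 and Asns, 0.86 between Atf4 and Trib3, 0.84 between Trib3 and Nupr1, and 0.79 between Atf4 and Asns. Chac1 correlated at 0.11 with Asns, 0.30 with Atf4 and −0.42 with Ddit3. Outside the 10 genes, those most like Atf4 were Mfap1a (0.94) and Tpd52l2 (0.94), and those most like Asns were Gm23639 (0.98) and Trim35 (0.97). The amino acid carrier Slc1a5 (0.95) was among the 5 genes most like Trib3, after Naa50 (0.96) and H1f2 (0.95). Gm20546 and Pros1 (0.93 each) were the most like Ddit3. These are descriptions of 12 libraries and carry no test.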

How the data were processed

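Raw counts per gene symbol, as the authors deposited them, were the values used, and their normalised table was not used. Per the labels' protocols, libraries were made with a 3′ mRNA kit, which gives about 1 fragment per transcript, so levels carry no length scaling. STAR 2.7.5c, featureCounts 2.0, cutadapt 2.5, bcl2fastq, DESeq2 and build GRCm39 appear in the submitters' processing notes. Not given in the sources used here are the annotation, the strand setting and how reads with several matches were handled. Coordinates, transcript lengths and overlaps came from GENCODE vM21 (GRCm38), and promoter windows from RefSeq (GRCm38.p6).

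The test was edgeR 4.0.16 (R 4.3.3) on 1 fit of all 12 libraries with a coefficient per group (filterByExpr with minimum count 10 and minimum total 15, TMM, quasi-likelihood F test, two-sided, 8 residual degrees of freedom). Calls were made at 0.05 after Benjamini-Hochberg adjustment over 13852 genes. Fold changes used a prior count of 0.125, and the SE is the log2 change over the square root of F. The procedure was tested on simulated counts. Levels are CPM on TMM-scaled totals, with SD over 3 libraries. Correlations used log2 CPM with a prior count of 2. Totals were 5.30 to 15.9 M counts, and floors of 3 counts cover counting error only. No 2 replicates agreed within sampling noise (chi-square per degree of freedom 5.55 to 28.1). The 21 alternatives (20 for the interaction) covered scaling, filter, tool (DESeq2 1.42.0, limma-voom 3.58.1), samples in the fit, replicate block, transcript length and libraries left out.

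All 10 genes were named in each comparison, and from each list up to 6 called genes with the largest change could be named. For Atf4, Asns, Trib3 and Ddit3, the 5 genes most correlated with each were eligible. The 10 genes and the lists were chosen with earlier results of these data known, so the lists do not stand as independent evidence.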

Additional observations from a re-analysis of the deposited data

How the results depend on the processing

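No called log2 change of the 10 genes changed sign under any alternative. Of 1247 alternative values for these genes, 1215 stayed on their side of the threshold, 30 lost the call and 2 gained it. Among values that were not called, 41 had the opposite sign to the value reported. The count of called genes among the 10 moved from 0 to 1 for budesonide against control with DESeq2, from 1 to 2 for both against budesonide with DESeq2, and from 2 to 1 for both against proline with no low-count filter. For proline against control it moved from 6 to 4 with no low-count filter or without control 3 and budesonide 3, and to 5 with only the groups compared or with the replicate block. Over all genes tested, budesonide against control had 902 calls, against 493 with only the groups compared and 575 without control 3 and budesonide 3. Both against budesonide had 203, against 354 with no low-count filter, 435 with DESeq2 and 120 with only the groups compared. The interaction had 65, against 134 with no filter and 162 with DESeq2. Replicate numbers did not pair the libraries: correlations of same-numbered deviations ran from −0.0767 to 0.0529, and 3 of 12 libraries correlated best with their own number. With the replicate block, both against budesonide had 128 calls and Trib3 in proline against control an adjusted p of 0.0654. Leaving out each library in turn gave 674 to 1245 called genes for proline against control (3 to 6 of the 10), 620 to 912 for budesonide against control (0 to 0), 836 to 1647 for both against proline (1 to 2), 80 to 307 for both against budesonide (1 to 1), 535 to 1187 for both against control (4 to 5) and 44 to 89 for the interaction (0 to 0). The lowest count of 3 of the 10 came without proline 1. Over all genes, the count moved by over 1.5 times for proline against control without control 1 (725), proline 1 (674) or proline 3 (711), for both against proline without proline 1 (920) or both 1 or 2 (836 or 870), for both against control without both 1 or 2 (537 or 535), and for both against budesonide without control 3 (307), budesonide 1 or 3 (135 or 92) or both 1, 2 or 3 (80, 102 or 82). The cause of these shifts was not tested. Atf3, with 15 to 29 counts per group, had the fewest counts of the 10.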
